A study of Caenorhabditis elegans with 8 samples.

Results

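The nuclear ribosomal RNA genes of the nematode Caenorhabditis elegans were followed through an iCLIP experiment on FOG-3, a protein that germ cells need to take the sperm fate. They are 5 of the 12240 gene rows of the deposited count table, chosen by their WormBase IDs: rrn-1.1 (WBGene00004512) and rrn-1.2 (WBGene00004513) for 18S rRNA, rrn-2.1 (WBGene00004567) for 5.8S rRNA, and rrn-3.1 (WBGene00004622) and rrn-3.56 (WBGene00004677) for 26S rRNA. The table holds IDs without symbols, so the pairing of ID and symbol is that of the selection, and the 5 symbols were found in the RefSeq annotation of assembly WBcel235. The rows were chosen with their read counts and their difference between FOG-3 and control libraries in view. In every library 4 of them were the 4 most abundant rows of the table, and rrn-2.1 was the 6th. Their values in this comparison are therefore given as a description, without p-values.

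iCLIP fixes RNA to the protein it touches by ultraviolet light, purifies the protein and sequences the RNA that comes with it. Both groups came from the same worms, which carried a FLAG-tagged FOG-3 inserted in the genome as a single copy and were grown on plates to the last larval stage, L4, before lysis by ball milling. The 4 FOG-3 libraries were purified with the antibody to the FLAG tag, and the 4 control libraries were processed alike but without that antibody, so they hold the RNA that is carried along without it. The labels name no promoter for the tagged gene and no separate strain for the controls. The material was whole larvae, and the table gives no symbols, so neither germline markers nor the fog-3 mRNA itself was checked. The counts are of RNA recovered with or without the antibody, and they measure neither RNA per cell nor numbers of cells.

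Ribosomal RNA is the structural and catalytic core of the ribosome and the bulk of the RNA of a cell. RNA polymerase I transcribes 18S, 5.8S and 26S rRNA as a single precursor from tandem repeats in the nucleolus, and the precursor is then cut into the mature molecules. The 18S rRNA forms the small ribosomal subunit, which reads the mRNA, and the 26S and 5.8S rRNAs pair with each other in the large subunit, which joins amino acids. Because it is so abundant, rRNA is a usual background of crosslinking libraries. In the RefSeq annotation the 5 genes neighbour each other in the order rrn-3.56, rrn-1.1, rrn-2.1, rrn-3.1 and rrn-1.2. Both 18S genes are 1754 bases long, rrn-2.1 is 153 bases and rrn-3.1 is 3509 bases. The label of rrn-3.56 as a 26S gene holds only in part, since RefSeq lists it as an rRNA pseudogene of 852 bases.

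The libraries held 76790 to 186739 gene-assigned reads in the FOG-3 group and 14964 to 74892 in controls. Column names give each library's group and a 4-letter tag, used here as its name, but no replicate number. The design text calls the libraries biological replicates. If PCR copies of reads were not collapsed, which is not given in the sources used here, reads are not independent molecules, and all intervals below cover counting error only.

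Nuclear rRNA made up most of the reads of every control library and less of every FOG-3 library. The 5 rows together took 37.6%, 37.9%, 40.0% and 46.8% of all reads assigned to genes in libraries fog3_TGGC, fog3_GGCA, fog3_GGTT and fog3_CGGA. They took 69.1%, 74.9%, 78.2% and 78.8% in libraries control_TTGT, control_AATA, control_TTAA and control_CCGG. The groups did not overlap.

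The FOG-3 libraries had a mean share of 40.6% ± 4.3 (SD, n = 4) and the controls one of 75.2% ± 4.4, a difference of -34.7 percentage points. Exact 95% Clopper-Pearson intervals ran from 37.3% to 37.8% for fog3_TGGC, the deepest FOG-3 library, and from 77.5% to 78.9% for control_TTAA, the shallowest control. Counting error was therefore small beside the spread between libraries. Put another way, each rRNA read was accompanied by 1.14 to 1.66 reads of all other genes in FOG-3 libraries and by 0.270 to 0.447 in controls. In counts, the other genes held 42846 to 116583 reads in a FOG-3 library and 3262 to 23127 in a control.

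**Figure D1:**
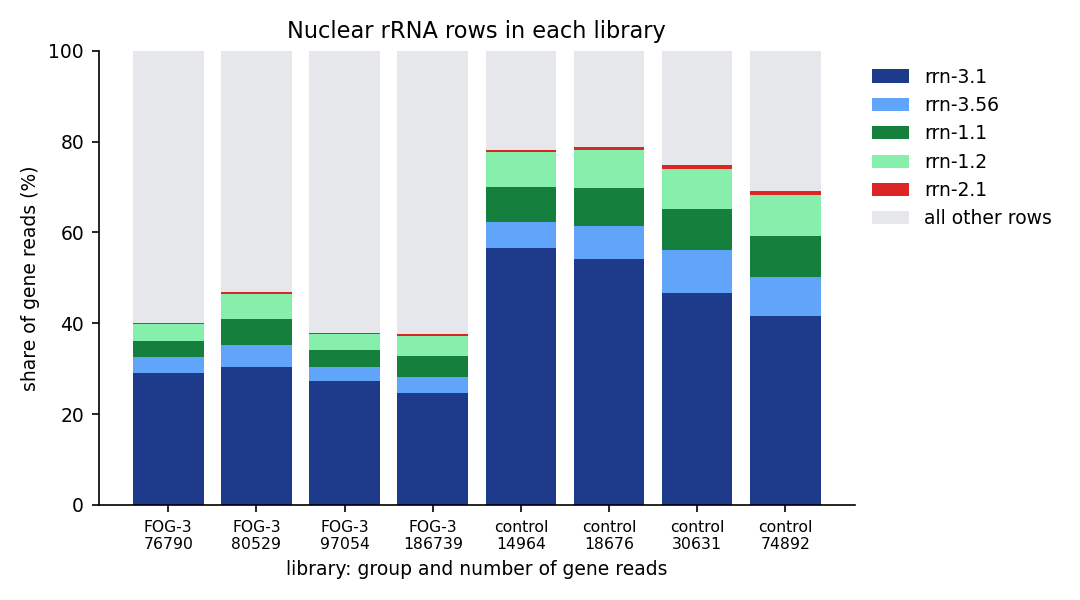
Share of gene-assigned reads (%, vertical axis) taken by each rRNA row and by all other rows in the 8 libraries, ordered within each group by depth, with the number of gene reads under each bar. The rRNA part reaches 37.6% to 46.8% in FOG-3 libraries and 69.1% to 78.8% in controls.

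The large subunit rRNA row rrn-3.1 was the most abundant row in all 8 libraries. It took 24.6%, 27.3%, 29.1% and 30.4% of gene reads in libraries fog3_TGGC, fog3_GGCA, fog3_GGTT and fog3_CGGA, and 41.6%, 46.7%, 54.1% and 56.7% in libraries control_TTGT, control_AATA, control_CCGG and control_TTAA. Within the controls this row had its lowest share in the deepest library and its highest in the shallowest. The FOG-3 libraries spanned a narrower range than the controls.

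The other 26S row, the pseudogene rrn-3.56, held 3.09% to 4.83% of gene reads in FOG-3 libraries and 5.67% to 9.43% in controls. Its means were 3.71% ± 0.77 and 7.72% ± 1.64 (SD, n = 4), a ratio of 0.481. Control control_TTAA, with 849 reads of rrn-3.56, was the control closest to the FOG-3 group.

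The 18S rows rrn-1.1 and rrn-1.2 carried exactly the same counts in every library, 2801 to 8444 reads in FOG-3 libraries and 1148 to 6800 in controls. Each row took 3.65% to 5.60% of gene reads in FOG-3 libraries and 7.67% to 9.08% in controls, with means of 4.36% ± 0.92 and 8.52% ± 0.64 (SD, n = 4). The 5 rows thus hold 4 distinct count profiles. Equal counts in every library would follow if each 18S read was entered in both rows. The table does not state how such reads were counted, and this was not tested. If they were so entered, the summed share above and the ratios to summed 18S reads below count the same reads more than once. With the pair counted once, the summed rRNA share averaged 37.9% ± 4.0 with FOG-3 and 72.9% ± 5.0 without the antibody. The separation of the groups did not depend on this choice.

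The 5.8S row rrn-2.1 was the rarest of the 5 and the one with the lowest ratio of the group means. It had 179, 231, 281 and 596 reads in libraries fog3_GGTT, fog3_GGCA, fog3_CGGA and fog3_TGGC, and 78, 123, 266 and 596 reads in libraries control_TTAA, control_CCGG, control_AATA and control_TTGT. As shares of gene reads these were 0.233% to 0.349% in FOG-3 libraries and 0.521% to 0.868% in controls. The deepest library of each group had 596 reads of this RNA, out of 186739 gene reads in FOG-3 and 74892 in the control. The mean share in FOG-3 libraries was 0.401 of that in controls. The corresponding ratio was 0.481 for rrn-3.56, 0.512 for each 18S row and 0.560 for rrn-3.1.

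Other annotated genes lie within or across these. In the RefSeq annotation a non-coding RNA gene overlaps rrn-3.1 over 679 bases, and others overlap rrn-1.1 over 334 bases, rrn-3.56 over 290 bases and rrn-1.2 over 150 bases. Their strand is not listed there and the strand setting of the counting is not given in the sources used here. Reads that overlapped several genes are kept in a row of their own. That row amounted to 1.58% to 2.00% of the number of rRNA reads in FOG-3 libraries and 0.410% to 0.736% in controls, so it is small beside the rRNA rows even if all of its reads came from them.

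Per length, the rows differed in level within each library. In RPKM, which here divides reads by the length in kilobases and by the library's gene reads, rrn-3.1 stood at 79385 ± 7188 (SD, n = 4) in the FOG-3 group and 141847 ± 19653 in the control group. The pseudogene row followed with 43596 ± 9071 and 90624 ± 19226. Each 18S row had 24862 ± 5250 and 48547 ± 3662, and the 5.8S row had 18615 ± 3803 and 46472 ± 10035.

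The order rrn-3.1, rrn-3.56 and then the 18S rows held in all 8 libraries. Between 18S and 5.8S the order was not fixed. Their control means differed by less than 1 SD, while the 18S row was higher in all 4 FOG-3 libraries. In libraries control_TTGT and control_AATA the 5.8S row lay above the 18S row on this scale, and in the other 6 libraries below it. These lengths are those of RefSeq and may not be those used in the counting, and a read shared by rrn-3.1 and rrn-3.56 may have been counted in either or both.

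**Figure D2:**
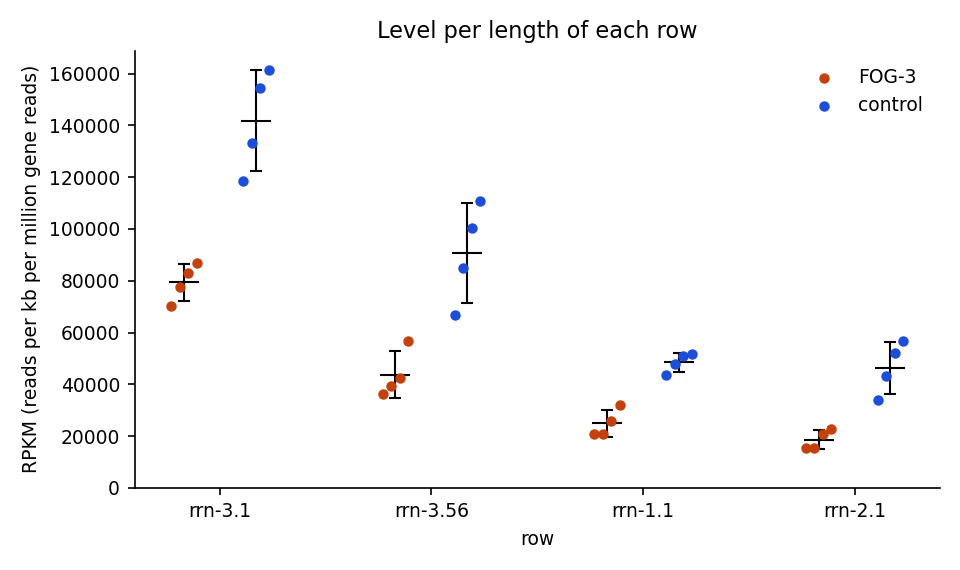
RPKM over gene reads (vertical axis) of 4 rRNA rows, with rrn-1.2 left out because its counts equal those of rrn-1.1. Points are libraries, and bars give the mean ± SD of 4 libraries; rrn-3.1 was highest per length in both groups, and each row was lower in every FOG-3 library than in every control.

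The size of this difference depended on how libraries were scaled to each other. With edgeR's quasi-likelihood fit over all rows that passed its filter and TMM scaling, which assumes that most rows are unchanged, 27.5% of the 886 rows tested were called lower in FOG-3 (adjusted p under 0.05). All 5 rRNA rows were among them, which restates how they were chosen, and nothing is read from it or from the later counts of rRNA rows. TMM-scaled CPM (counts scaled to a common library size) of every FOG-3 library lay below every control for all 5 rRNA rows and for 21.1% of the rows tested. By library totals alone this held for all 5 and for 5.08%.

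The log2 fold change of FOG-3 over control with TMM was -2.15 ± 0.24 (SE) for rrn-3.1, -2.24 ± 0.22 for each 18S row, -2.33 ± 0.22 for rrn-3.56 and -2.60 ± 0.21 for rrn-2.1. The median of all 886 rows was 0.74 under the same scaling. A row can pass the filter through the FOG-3 libraries alone. Any such row counts in the medians and in the shares called lower, so these are no neutral background. With library totals alone the values were -0.84 ± 0.16, -0.97 ± 0.17, -1.06 ± 0.17 and -1.33 ± 0.19, beside a median of 1.94, and 9.48% of rows were called lower. The difference between these sets comes with the TMM factors, which were 1.47 to 1.66 in FOG-3 libraries and 0.593 to 0.716 in controls.

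Leaving the rRNA out of the library totals gave nearly the TMM values. Libraries were then scaled on the reads of all other genes, and rrn-3.1 had a log2 fold change of -2.14 ± 0.29 and rrn-2.1 of -2.57 ± 0.22, with 26.9% of rows called lower. Counting the reads outside genes in the totals gave -0.97 ± 0.17 for rrn-3.1 and -1.46 ± 0.19 for rrn-2.1, with 10.9% called lower. Other scaling factors gave values in between, with rrn-3.1 at -2.05 ± 0.31 with upper-quartile factors, -1.60 ± 0.20 with TMMwsp (a variant of TMM for tables with many zeros) and -1.05 ± 0.26 with the size factors of DESeq2. Under these 3 scalings 24.3%, 21.8% and 10.4% of rows were called lower. Ranks among the 886 rows, counted from the lowest fold change, ran from 5 to 8 for rrn-2.1 and from 21 to 56 for rrn-3.1 over 9 scalings.

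The filter on low counts and thinning of the reads also moved the values. With no filter on low counts rrn-3.1 had -1.39 ± 0.34 and rrn-2.1 had -1.90 ± 0.24, beside a median of 1.15 over 12240 rows, of which 1.08% were called lower. With at least 1 CPM in 4 libraries they had -1.50 ± 0.26 and -2.02 ± 0.24, and 3.65% of 5258 rows were called lower. With every library thinned to the depth of the shallowest, 103 rows passed the filter and their median was 0.08. Thinning drew reads at random within each library. The expected mean rRNA shares of gene reads therefore stayed at 40.6% with FOG-3 and 75.2% in controls. TMM factors were computed anew on these 103 rows, so the scaling was not that of the main fit. The rRNA rows then had much smaller changes, -0.28 ± 0.18 for rrn-3.1, -0.41 ± 0.19 for rrn-1.1, -0.49 ± 0.20 for rrn-3.56 and -0.94 ± 0.23 for rrn-2.1, and 3.88% of the 103 rows were called lower.

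**Figure D3:**
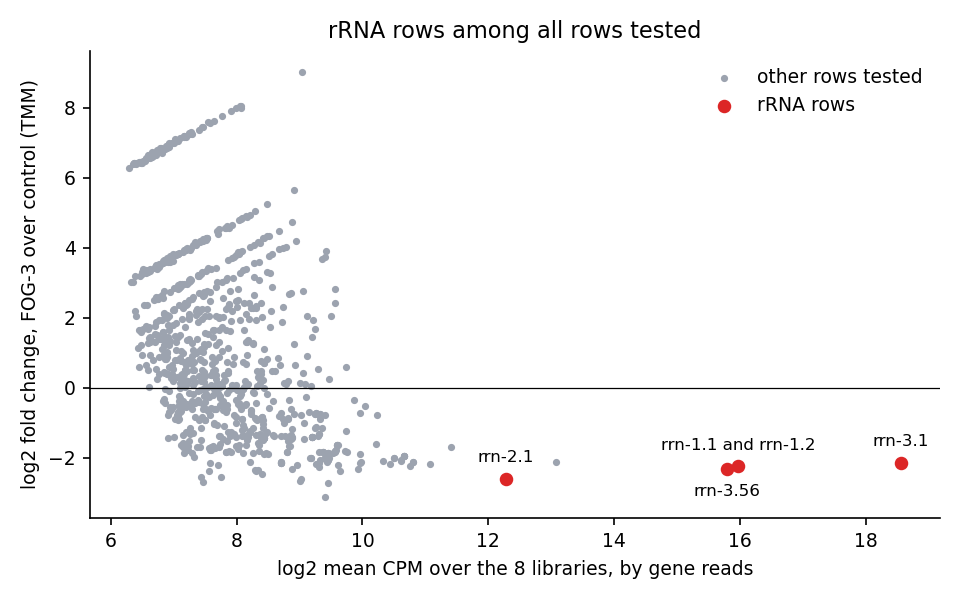
Log2 fold change of FOG-3 over control with TMM (vertical axis) against log2 of the mean CPM over the 8 libraries (horizontal axis) for the 886 rows tested. The rRNA rows lie at the abundant end, between -2.60 and -2.15, while the other rows spread over both sides of 0.

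Scaling on rRNA itself sets its change near 0 by construction and shows how the rRNA rows stood to each other. Of the summed 26S reads 83.0% to 90.9% were rrn-3.1, so setting libraries equal in this sum nearly fixed that row. The log2 fold change of rrn-2.1 was then -0.49 ± 0.22, and 0.339% of the 886 rows were called lower. The 18S rows then had -0.12 ± 0.14, rrn-3.56 had -0.22 ± 0.14 and rrn-3.1 had 0.032 ± 0.094. The median of all rows was 2.74 under this scaling. Scaled on rrn-3.1 alone, which then has no change by construction, rrn-2.1 had -0.53 ± 0.19 and 0.677% of all rows were called lower. With identical rows kept once and TMM, rrn-3.1 had -2.22 ± 0.24, and 26.8% of 853 rows were called lower. The counts cannot tell a loss of rRNA from a gain of other RNA, since each library gives shares of a whole.

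The place of rrn-3.1 above the other rRNA rows was the same in every setting. In the TMM fit the log2 fold change of rrn-2.1 lay below that of rrn-3.1 by -0.45, that of rrn-3.56 by -0.18 and that of the 18S rows by -0.10. Over the main setting and its 23 alternatives these differences ran from -0.88 to -0.35, from -0.60 to -0.11 and from -0.39 to -0.0047. They carry no error of their own here, and the ratios by library, next, show how far the groups overlap.

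**Figure D4:**
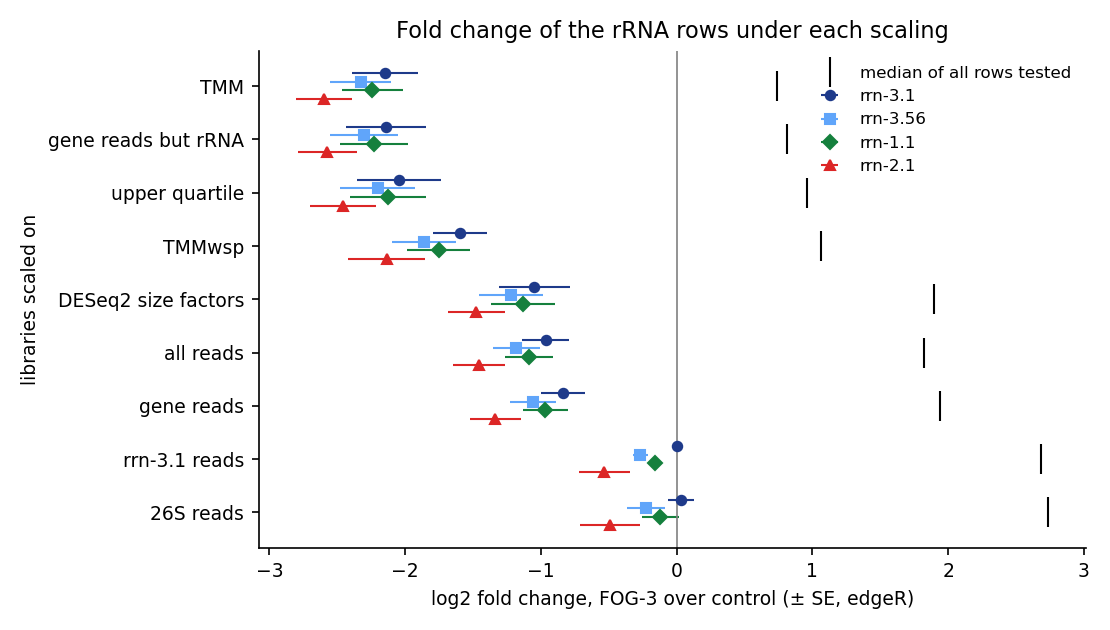
Log2 fold change of FOG-3 over control (horizontal axis, ± SE from edgeR) of 4 rRNA rows under 9 ways of scaling the libraries (vertical axis), with the median of all rows tested as a black tick. The rRNA rows keep their places relative to each other while all values shift, from -2.60 to -2.15 with TMM to -0.49 to 0.032 on summed 26S reads.

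Ratios between rRNA species within a library need no scaling. The ratio of 26S to 18S reads, each summed over its 2 rows, was 3.12, 3.15, 4.13 and 4.45 in libraries fog3_TGGC, fog3_CGGA, fog3_GGCA and fog3_GGTT, and 2.76, 3.14, 3.67 and 4.06 in libraries control_TTGT, control_AATA, control_CCGG and control_TTAA. The groups overlapped over most of their range. The means were 3.71 ± 0.68 (SD, n = 4) and 3.41 ± 0.57, a difference of 0.305 that was smaller than either SD. The FOG-3 libraries thus did not stand apart from the controls in this ratio.

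For 5.8S rRNA the groups lay further apart and still met. Its reads amounted to 3.12%, 3.20%, 3.24% and 3.53% of the 18S reads in libraries fog3_CGGA, fog3_GGTT, fog3_GGCA and fog3_TGGC, and to 3.40%, 3.94%, 4.38% and 4.85% in libraries control_TTAA, control_CCGG, control_TTGT and control_AATA. The means were 3.27% ± 0.18 and 4.14% ± 0.62 (SD, n = 4). Only control_TTAA, which had 78 reads of 5.8S, fell within the FOG-3 range. Its exact 95% interval, 2.68% to 4.26%, covered the values of all 4 FOG-3 libraries and those of control_CCGG.

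Against 26S, its partner in the large subunit, the 5.8S reads amounted to 0.718% to 1.13% in FOG-3 libraries and 0.836% to 1.59% in controls. The means were 0.906% ± 0.190 and 1.26% ± 0.37 (SD, n = 4), a difference of -0.355 percentage points. Control control_CCGG at 1.07% and control_TTAA at 0.836% both fell within the FOG-3 range.

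Among the single rows there were 6 ratios to compare, with rrn-1.1 standing for the identical pair, and 1 of them had groups that did not overlap. It was rrn-2.1 to rrn-3.56, singled out after its values were seen. It was 6.98%, 7.22%, 7.71% and 8.87% in libraries fog3_GGTT, fog3_CGGA, fog3_GGCA and fog3_TGGC, and 9.11%, 9.19%, 9.21% and 9.31% in libraries control_CCGG, control_TTAA, control_AATA and control_TTGT. The highest FOG-3 library, fog3_TGGC, had an interval of 8.14% to 9.65%, which covered all the controls. The means were 7.69% ± 0.84 and 9.20% ± 0.08 (SD, n = 4). The controls lay closer together than counting error alone would place them, with a chi-square of 0.018 per degree of freedom.

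**Figure D5:**
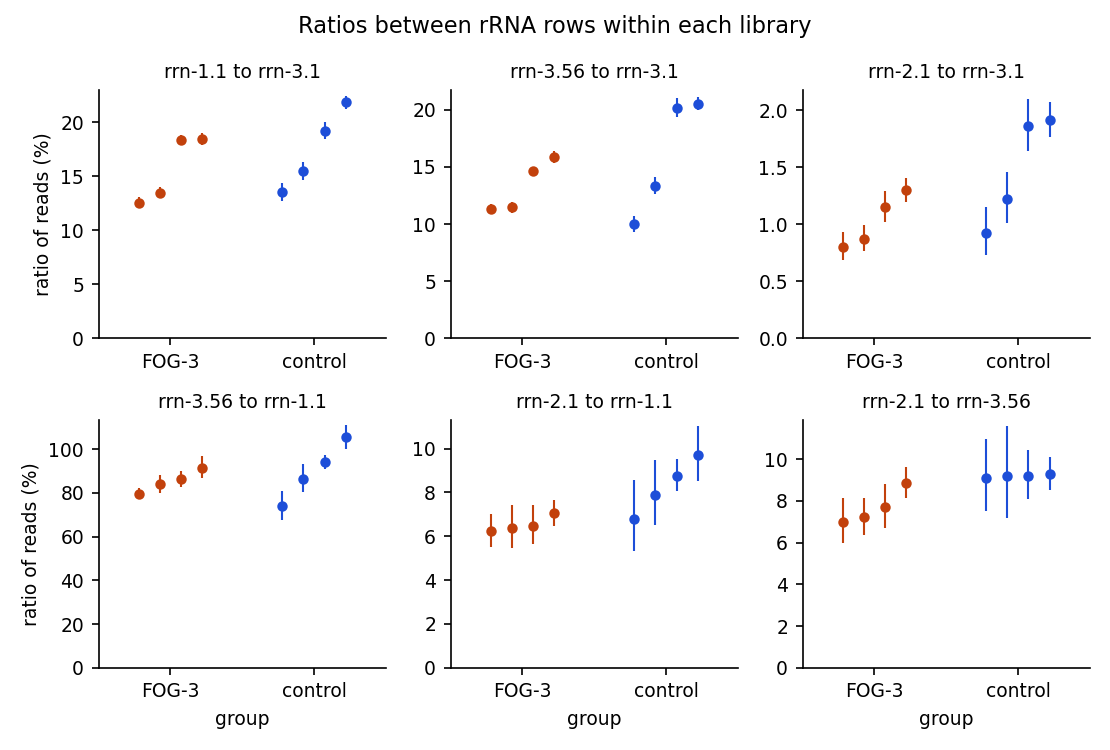
Ratio of the reads of 2 rRNA rows (%, vertical axes from 0) in each library, with exact 95% intervals for counting error, FOG-3 and control side by side and libraries ordered by value. Ratios to rrn-3.1 spread widely in both groups, and rrn-2.1 to rrn-3.56 is the 1 ratio of 6 in which the groups do not overlap.

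The part of rrn-3.1 in the rRNA reads varied more between libraries of a group than between the groups. With the identical pair counted once, rrn-3.1 made up 73.8% to 80.1% of rRNA reads in FOG-3 libraries and 69.3% to 80.3% in controls, with means of 77.0% ± 3.3 and 74.3% ± 5.2 (SD, n = 4). The chi-square for the make-up over the 4 distinct rows was 75.7 per degree of freedom among FOG-3 libraries and 82.7 among controls, where counting error alone would give about 1. PCR copies would also raise it.

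The ratios to rrn-3.1 varied more than those between the other rows. The ratio of rrn-3.56 to rrn-3.1 was 20.5% in control_TTGT, 20.2% in control_AATA, 13.4% in control_CCGG and 10.01% in control_TTAA. The ratios of rrn-1.1 and of rrn-2.1 to rrn-3.1 had the same order of controls. Their highest values were 1.61 and 2.08 times their lowest, and that of rrn-3.56 was 2.05 times. These 3 ratios share their denominator. Between rrn-3.56 and rrn-1.1, without rrn-3.1, the highest control was 1.43 times the lowest. For rrn-2.1 to rrn-1.1 it was also 1.43 times, and for rrn-2.1 to rrn-3.56 it was 1.02 times.

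In FOG-3 libraries the same split was seen in a narrower range. fog3_CGGA and fog3_TGGC had the higher ratios to rrn-3.1, with 18.4% in each for rrn-1.1, and fog3_GGTT and fog3_GGCA the lower ones, with 12.5% and 13.5%. The ratio of rrn-3.56 to rrn-1.1 had a coefficient of variation of 5.86% among FOG-3 libraries, against 17.2% for rrn-3.56 to rrn-3.1. The short 26S-related row therefore kept step with 18S more closely than with the full-length 26S row there. Among controls these coefficients were 14.7% and 32.5%.

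Depth followed the order of the ratios to rrn-3.1 among the controls. The share of reads outside genes did so too, except that control_CCGG lay below control_TTAA. control_TTGT and control_AATA, with the higher ratios to rrn-3.1, had 74892 and 30631 gene reads and 5.54% and 4.06% of all reads outside genes. control_CCGG and control_TTAA had 18676 and 14964 gene reads, and 2.41% and 2.80% outside genes. Among FOG-3 libraries neither measure had this order. fog3_TGGC and fog3_CGGA had 186739 and 80529 gene reads, with 12.4% and 9.73% outside genes. fog3_GGCA and fog3_GGTT had 97054 and 76790, and their shares outside genes lay between those of the other 2. The part of depth in these ratios was not tested.

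Outside the 5 rows, shares of reads were far below those of the 26S and 18S rows. The most abundant other row took 0.588% to 0.662% of gene reads in FOG-3 libraries and 1.04% to 1.14% in controls, which is above rrn-2.1. It is also the row whose pattern over the 8 libraries was most like that of the summed rRNA, WBGene00014472. Its Pearson correlation with the rRNA sum was 0.97 on log2(CPM + 50), the highest of 268 rows with at least 200 reads. It had 6267 ± 310 CPM (SD, n = 4) in FOG-3 libraries and 11012 ± 427 in controls. WBGene00045153 followed with a correlation of 0.93, and with 302 ± 62 and 635 ± 116 CPM.

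The likeness of WBGene00014472 rests on the difference between the groups. After the mean of each group was taken away, its correlation was 0.06. For WBGene00045153 it was 0.50, so part of its likeness remained. That row had 124 reads in FOG-3 libraries together and 86 in controls. The points share library depth and the constraint that shares sum to a whole, and no p-value is given. Over all 268 rows the median correlation with the rRNA sum was -0.81, with 85 rows above 0 and 183 below. No symbol is paired with either ID in the sources used here.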

How the data were processed

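The authors deposited raw read counts per gene ID. The submitters' processing notes name the aligner STAR 2.4.2 and the read counter HTSeq, and the sources used here give no genome build, annotation, strand setting or treatment of multi-mapped reads. Rows of reads outside genes (2.41% to 12.4% of all reads) and overlapping several genes (0.311% to 0.696%) stayed out of library sizes. None (0) of the table's IDs was found in the RefSeq table of 46926 genes, so the lists of other ribosome-related genes, whose members are named by symbol, were not analysed here. Members and lists were chosen with earlier results of these data known. Named rows are the 5 members and the 2 rows most correlated with their sum.

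Under R 4.3.3, counts were fitted by edgeR 4.0.16 (quasi-likelihood, group as the only term, TMM, default filter with minimum count 10 and minimum total 15, Benjamini-Hochberg over 886 rows). Standard errors are the fold change over the square root of F. The fit was also run on simulated counts in which rows rose and fell alike and the rRNA rows did not change. Those counts lack the rRNA difference seen here, so they do not test the scaling under it. Alternatives used limma 3.58.1, DESeq2 1.42.0, other scalings and filters, thinning and leaving out libraries. Shares, ratios and exact intervals used scipy 1.17.1. One read was worth 5.36 to 66.8 CPM. The p-values behind calls set the difference between the groups against the spread between these libraries, which is estimated with information shared across rows.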

Additional observations from a re-analysis of the deposited data

How the results depend on the processing

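The count of rRNA rows called lower restates the choice of these rows and is given only as a record. It was 5 in 19 of 23 alternatives, in which 1.08% to 26.9% of all rows were called lower, and 4 in 2, with identical rows kept once, where 4 were tested, and scaled on rrn-3.1 alone, where its own change is 0 by construction. It was 1, rrn-2.1, when libraries were scaled on summed 26S reads, which are mostly rrn-3.1, and 1 after thinning to the shallowest library, where 103 rows passed the filter; 0.339% and 3.88% of all rows were called there. Of 113 fold changes of single rows, 112 were below 0. The exception was rrn-3.1, at 0.032 on summed 26S reads. This tally also restates the choice of the rows, and no share of all rows below 0 is given beside it. The fold changes come from repeated fits of the same libraries or subsets of them. Nearly all of these fits enter the rows with identical counts separately, so the fold changes are not independent of each other. Scaling on rrn-3.1 alone and leaving out the 2 shallowest controls were chosen after seeing the data. The former gave the rRNA rows a smaller SE (0.05 for rrn-1.1) than the spread of the ratios by library would.

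The ratio of 5.8S to 18S reads differed by -0.0087 between the groups, and by -0.0175 with identical rows counted once or with single rows in place of sums, where the 18S reads are halved by construction. The difference in 26S to 18S was 0.305, and it became 0.609 with identical rows counted once, through the same halving. With single rows in place of sums it was 0.656. Both shifts stayed below 1 SD between libraries, which was 0.630 on the unhalved ratio. In the other alternatives, differences of the summed share, 26S to 18S and 5.8S to 26S moved by less than 1 SD between libraries. Leaving out each library in turn gave a difference in summed share of -36.7 to -33.5 percentage points and in 26S to 18S of 0.058 to 0.523. The difference was -0.0112 to -0.0064 in 5.8S to 18S and -0.0050 to -0.0025 in 5.8S to 26S. The count of rRNA rows called lower was 5 each time, which restates their choice, beside 10.8% to 26.5% of all rows tested. Without control_TTGT, the deepest control, rrn-3.1 had a log2 fold change of -1.60 with TMM, its smallest change when a library was left out. Depth limits the 5.8S row most, with 78 reads in the shallowest control. No paired analysis was possible because the columns carry no replicate number. Dixon's test flagged no library in 30 groups of 4 values, which reuse the same rows. With 4 values it flags only a library very far from the others, so it could miss smaller departures.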
